A study of Mus musculus with 6 samples.

Results

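A set of 9 purinergic signalling genes was followed through 6 mouse forebrain libraries, chosen by gene symbol from the 23282 entries of the deposited count tables. The 9 genes were P2ry1, P2ry13 and P2ry14 of the P2Y receptors, P2rx4 and P2rx7 of the P2X channels, the adenosine receptors Adora1 and Adora2b, and the surface enzymes Entpd1 and Nt5e. Each symbol was found once, and all 9 genes passed the filter on low counts, as did 15239 genes in all. The animals were male C57BL/6J mice of 8 to 10 weeks. In 3 of them water avoidance stress (WAS) had been applied for 1 h, on a small platform surrounded by water, and the 3 controls had spent 1 h on the same platform in a dry container. Both groups were killed directly afterwards, and RNA came from 1 forebrain hemisphere per mouse, without olfactory bulb and cerebellum. The comparison asks whether transcripts of these genes differ after a short psychological stress.

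ATP leaves cells when neurons and glia are active and acts as a signal between them. P2X receptors are channels opened by ATP, whereas P2Y receptors are G protein-coupled and respond to ATP, ADP, UTP or UDP-glucose, depending on the receptor. Enzymes on the cell surface then break ATP down to adenosine, which acts on its own family of G protein-coupled receptors and dampens transmitter release through Adora1. In the brain, ADP receptors of the P2Y family are well known in microglia and in astrocytes.

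The libraries were made by QuantSeq 3′ mRNA-Seq, which reads 1 fragment next to the poly(A) tail of a transcript, so counts were not divided by transcript length. Total counts lay between 9248520 and 10502029, and levels are given as CPM, the count scaled to the library total. The groups follow the sample labels. The count columns inside the deposited tables carry headings that begin with WC for the 3 WAS samples and with WS for the 3 control samples, letters that are not explained. The gene list supplied with the study gives every listed gene found in the tables, P2ry1 among them, the opposite direction to that of the group means by the sample labels. Which of the 2 assignments holds was not settled here, so WAS and control below mean the labels only, and with the groups exchanged every direction would be reversed. Libraries WAS 1 and WAS 3 stood apart in region markers. The summed level of 7 striatal genes was 161 CPM in WAS replicate 1 and 368 CPM in WAS replicate 3, against 1903 CPM in WAS replicate 2 and 950.0 to 1295 CPM in the control libraries. Markers of midbrain monoamine neurons were higher in the same libraries, at 30.7 CPM in WAS replicate 1 and 62.4 CPM in WAS replicate 3 against 12.6 to 15.4 CPM elsewhere. The choroid plexus sum was 52.9 CPM in WAS replicate 1 and 16.7 CPM in control replicate 2, against 929.5 to 1244 CPM in the other 4 libraries. In bulk tissue, fewer cells of a type and less RNA per cell cannot be told apart.

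P2ry1 encodes the P2Y1 receptor, which is activated by ADP and couples through Gq proteins to the release of calcium from internal stores. The gene lies on the plus strand of chromosome 3, at chr3:61002795-61008982 in GRCm38 (mm10). Its level was 15.2, 15.6 and 18.4 CPM in WAS replicates 1, 2 and 3 and 6.67, 6.55 and 12.8 CPM in control replicates 1, 2 and 3. All 3 libraries labelled WAS lay above all 3 labelled control, and control replicate 3 stood nearer to the WAS libraries than to the other controls. Mean levels were 16.4 ± 1.77 CPM after WAS by the labels and 8.68 ± 3.59 CPM in controls (SD, n = 3 each).
The fitted change was 1.84-fold, or 0.88 on the log2 scale (standard error 0.25, 95% confidence interval 0.33 to 1.43). By edgeR's quasi-likelihood test the unadjusted p was 0.00489 and the adjusted p, by Benjamini and Hochberg over all genes tested, was 0.518. An antisense transcript of the annotation, Gm37035, shares 992 exon bases with P2ry1 and was not in the tables, and the strand setting of the counting is not given. P2ry1 is a gene that the study itself singled out from these libraries, so its difference is no independent evidence, and the list of the study has it lower after WAS where the labels have it higher. The raw counts were 153, 144 and 184 against 70, 68 and 128, and counting error alone would give an SD of 0.922 CPM in the control group, where the measured SD was 3.89 times as large. Without control replicate 3 the log2 fold change was 1.28 (unadjusted p = 7.46e-05 and adjusted p = 0.303 by edgeR).
The difference of P2ry1 was nearly as large without the 2 libraries low in striatal genes, at 0.80 on the log2 scale (unadjusted p = 0.0236 by edgeR, with a single WAS library left and assumed to vary like the controls). Without the 2 libraries low in choroid plexus genes it was 0.76 (unadjusted p = 0.0257 by edgeR).

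**Figure D1:**
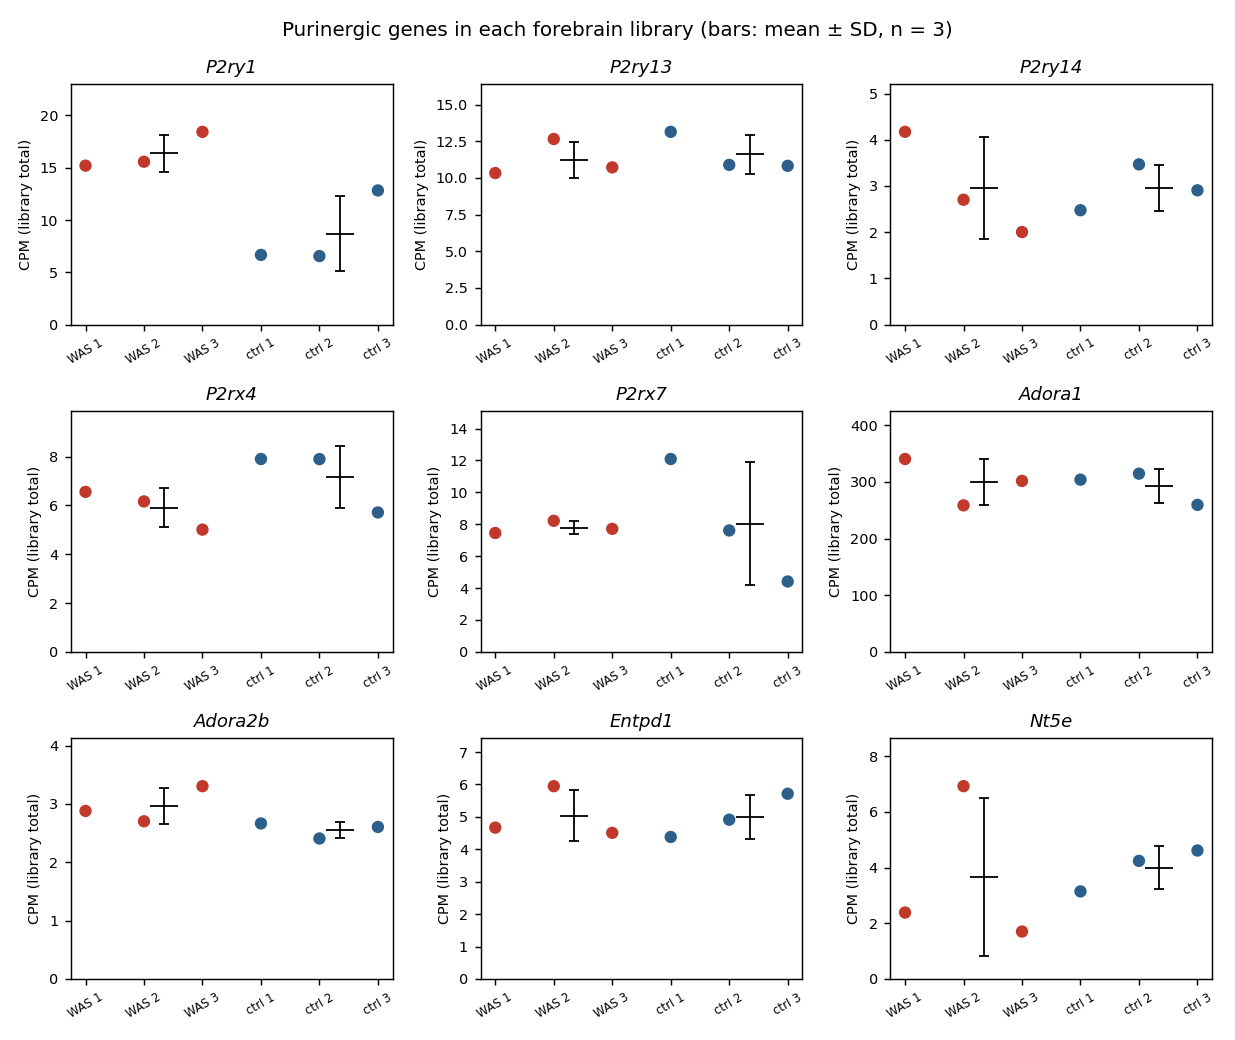
Level of each of the 9 genes in CPM (count scaled to the library total, linear axis) in the 3 libraries labelled WAS (red) and the 3 labelled control (blue), with the mean ± SD of each group in black. For P2ry1 the WAS libraries lie between 15.2 and 18.4 CPM, all above the controls, and for P2rx7 the spread of the controls is wider than any difference between the groups.

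The promoters of P2ry1 and P2ry13 are shown because both encode receptors for ADP and lie on chromosome 3, and the libraries of the groups separated for the first and overlapped for the second. Each sequence is the 250 bases before the RefSeq transcript start in GRCm38.p6, read 5′ to 3′ on the strand of the gene, at chr3:61002535-61002784 on the plus strand for P2ry1 and at chr3:59210883-59211132 on the minus strand for P2ry13. Capitals mark the GC box (GGGCGG, on either strand).
P2ry1: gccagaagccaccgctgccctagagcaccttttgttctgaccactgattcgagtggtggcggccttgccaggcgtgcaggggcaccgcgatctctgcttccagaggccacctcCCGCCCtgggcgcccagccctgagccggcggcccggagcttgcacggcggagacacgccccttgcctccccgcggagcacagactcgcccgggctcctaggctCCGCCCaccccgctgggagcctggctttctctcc
P2ry13: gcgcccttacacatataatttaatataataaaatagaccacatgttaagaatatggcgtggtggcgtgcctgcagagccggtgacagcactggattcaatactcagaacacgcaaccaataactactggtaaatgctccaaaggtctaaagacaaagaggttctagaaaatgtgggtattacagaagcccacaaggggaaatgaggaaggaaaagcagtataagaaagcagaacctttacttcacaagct
The P2ry1 promoter had a GC content of 70.8%, 20 CpG dinucleotides and 2 GC boxes. The P2ry13 promoter had a GC content of 41.6%, 5 CpG dinucleotides and no GC box in this window. Over 27025 promoters of the same length the median GC content was 52.0% and 33.0% held a GC box. Of the 9 genes, P2ry1, P2rx7, Adora1, Adora2b and Nt5e had a GC box, and none of the 9 windows held the cAMP response element TGACGTCA, which was found in 1.60% of all promoters.

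P2ry13, another ADP receptor, and P2ry14, a receptor for UDP-glucose, overlapped between the groups. Both are typical of immune cells, and P2ry13 is well known in microglia. They lie 54.3 kb apart on the minus strand of chromosome 3, P2ry14 at chr3:59113855-59153618 and P2ry13 at chr3:59207892-59210882, and P2ry12 follows 5.39 kb beyond P2ry13. These 3 genes sit inside Med12l, which runs in the opposite direction, and P2ry13 and P2ry14 share no exon base with it. P2ry1 is 1740 kb away from them.
P2ry13 was measured at 10.3, 12.7 and 10.7 CPM in WAS replicates 1, 2 and 3 and at 13.1, 10.9 and 10.8 CPM in the control replicates. The groups overlapped, and the log2 fold change was -0.086 (95% confidence interval -0.46 to 0.29). The spread between libraries was 1.16 times the counting error in the WAS group and 1.24 times in the control group, so the replicates scattered little more than counting gives.
P2ry14 was measured at 4.17, 2.70 and 2.00 CPM in WAS replicates 1, 2 and 3 and at 2.48, 3.47 and 2.91 CPM in the control replicates. The highest and the lowest of the 6 libraries were both labelled WAS, and the log2 fold change was -0.031 with an interval of -0.80 to 0.74. This interval, at 178 counts over 6 libraries, holds a change of 1.5-fold in either direction.
P2ry12, the related ADP receptor of microglia, was at 11.8 to 17.1 CPM over all libraries at a log2 fold change of 0.021 ± 0.18 (SE). A sum of 12 microglial markers lay between 345 and 415 CPM in the libraries labelled WAS and between 367 and 414 CPM in those labelled control. None of the 12 had an unadjusted p under 0.05 by edgeR, and 10 of them had a log2 fold change below 0, with a median of -0.18.

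P2rx4 and P2rx7 encode subunits of cation channels gated by ATP. P2rx7 needs high concentrations of ATP and is linked to the release of interleukin 1 beta from immune cells, and P2rx4 is found in neurons and microglia. The genes are neighbours on the plus strand of chromosome 5, P2rx7 at chr5:122643911-122691432 and P2rx4 starting 16.1 kb further on, at chr5:122707544-122729738.
P2rx4 was measured at 6.56, 6.16 and 5.01 CPM in WAS replicates 1, 2 and 3 and at 7.90, 7.90 and 5.71 CPM in the control replicates. Control replicate 3 fell among the WAS libraries, and the log2 fold change was -0.32 (standard error 0.23, unadjusted p = 0.193 and adjusted p = 0.838 by edgeR). Its direction was the same under each of the 15 alternative settings, with values between -0.45 and -0.21. Of 9 annotated P2rx4 transcripts, 3 end in sequence that shares runs of 50 bases with transcripts of 192 other genes, and multiple alignments were counted, so the P2rx4 counts are uncertain. For the other 8 genes the last 500 bases of each annotated transcript shared no such run with another gene.
P2rx7 was measured at 7.45, 8.22 and 7.71 CPM in WAS replicates 1, 2 and 3. In the control replicates it was at 12.1, 7.61 and 4.41 CPM, the highest and the lowest values of all 6 libraries. The SD was 0.390 CPM in the libraries labelled WAS and 3.86 CPM in those labelled control (n = 3 each), where counting error gives 0.895 and 0.881 CPM. The log2 fold change was -0.080 (95% confidence interval -0.74 to 0.58), and it was 0.33 without control replicate 1 and -0.37 without control replicate 3, so 1 control library decided its sign.

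Adora1 encodes the adenosine A1 receptor, a Gi-coupled brake on transmitter release that is abundant in cortex and hippocampus. The gene lies at chr1:134199223-134235431 on the minus strand. It had by far the highest count among the 9 genes, with 341, 259 and 302 CPM in WAS replicates 1, 2 and 3 and 304, 315 and 260 CPM in the control replicates. The groups overlapped, and the log2 fold change was 0.00072 (standard error 0.11, 95% confidence interval -0.24 to 0.24). A change of 1.5-fold in either direction lies outside this interval. The SD was 7.39 times the counting error in the WAS group and 5.49 times in the control group. Exons of Adora1 overlap exons of Mybph on the other strand by 1162 bases, and Mybph itself held 1 to 15 counts per library.
Adora2b encodes the A2B receptor, a Gs-coupled receptor that needs high adenosine concentrations, at chr11:62248984-62266453 on the plus strand. It was measured at 2.88, 2.70 and 3.31 CPM in WAS replicates 1, 2 and 3 and at 2.67, 2.41 and 2.61 CPM in the control replicates. The groups did not overlap in CPM, yet the raw counts were 29, 25 and 33 against 28, 25 and 26 and did overlap. The log2 fold change was 0.17 (standard error 0.30, unadjusted p = 0.576 and adjusted p = 0.952 by edgeR). The replicates scattered by less than the counting error, at 0.562 and 0.270 times its size.

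Entpd1 and Nt5e act in series on the outside of the cell membrane. Entpd1 (CD39) takes ATP and ADP down to AMP, and Nt5e (CD73) turns AMP into adenosine. Entpd1 lies at chr19:40612366-40741602 and Nt5e at chr9:88327197-88372092, both on the plus strand.
Entpd1 was measured at 4.67, 5.95 and 4.51 CPM in WAS replicates 1, 2 and 3 and at 4.38, 4.91 and 5.71 CPM in the control replicates. The groups overlapped, and the log2 fold change was -0.028 (95% confidence interval -0.57 to 0.52).
Nt5e was measured at 2.38, 6.92 and 1.70 CPM in WAS replicates 1, 2 and 3 and at 3.14, 4.24 and 4.61 CPM in the control replicates. The libraries labelled WAS held both the highest and the 2 lowest values, and the controls lay between them. The SD in the libraries labelled WAS was 2.84 CPM (n = 3), 4.57 times the counting error. Over all 6 libraries the fitted log2 change of Nt5e was -0.17 ± 0.46 (SE, adjusted p = 0.968 by edgeR). Without WAS replicate 2 it was -1.001 (unadjusted p = 0.0173 and adjusted p = 0.212 by edgeR), and without both WAS replicates 1 and 3 it was 0.75, with a single WAS library left. The direction of Nt5e turned with the libraries that entered the fit.
The 2 libraries with the least Nt5e were those with the least striatal RNA. Adora2a, the adenosine receptor of striatal projection neurons, was at 0.497, 50.3 and 7.31 CPM in WAS replicates 1, 2 and 3 and at 26.6, 28.2 and 34.9 CPM in the controls. The fitted log2 change was -0.68 ± 0.79 (SE, adjusted p = 0.922 by edgeR), which became -2.98 without WAS replicate 2 (adjusted p = 0.00264 by edgeR) and 0.71 without WAS replicates 1 and 3. None of the 6 striatal markers tested had an unadjusted p under 0.05 by edgeR, all 6 had a log2 fold change below 0, with a median of -0.52, and Drd2 was listed with at most 1 count in each library. Their part in the Nt5e values was not tested.

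**Figure D2:**
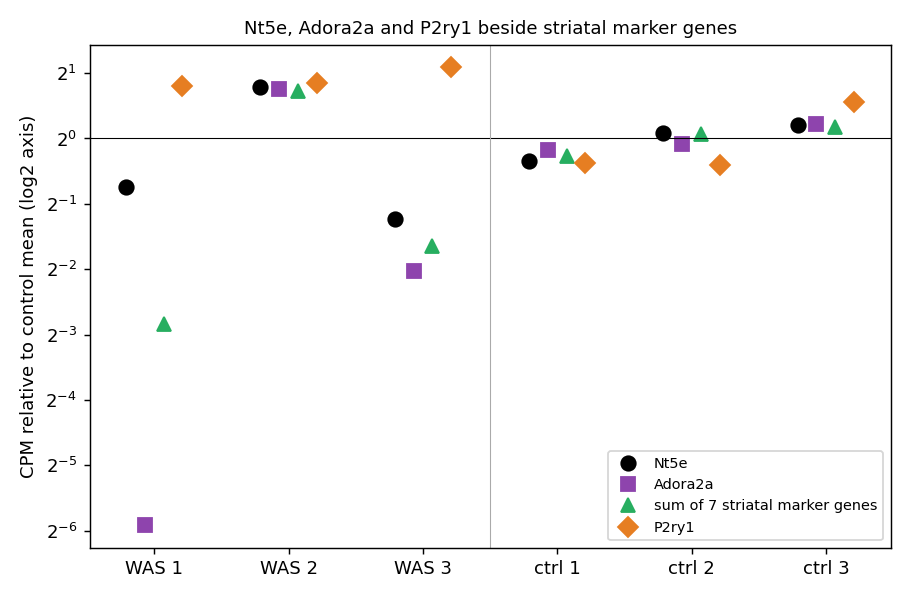
Nt5e, Adora2a, P2ry1 and the sum of 7 striatal marker genes in each library, as CPM divided by the mean of the 3 control libraries (log2 axis, points of 1 library set side by side). Nt5e, Adora2a and the striatal sum are low in WAS replicates 1 and 3 and highest in WAS replicate 2, whereas P2ry1 is above the control mean in all 3 WAS libraries.

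By mean level over the 6 libraries, where 1 fragment stands for 1 transcript end whatever its length, the order was Adora1 at 297 ± 32.1 CPM, P2ry1 at 12.5 ± 4.93, P2ry13 at 11.4 ± 1.17, P2rx7 at 7.92 ± 2.46, P2rx4 at 6.54 ± 1.17, Entpd1 at 5.02 ± 0.655, Nt5e at 3.83 ± 1.87, P2ry14 at 2.95 ± 0.768 and Adora2b at 2.76 ± 0.307 CPM (SD, n = 6). Adora1 was above P2ry1 in 6 of 6 libraries with no overlap of their ranges. Every other pair of neighbours in this order overlapped in range. P2ry1 was above P2ry13 in 4 of 6 libraries, and by group means P2ry1 was the higher after WAS by the labels (16.4 against 11.2 CPM) and P2ry13 the higher in controls (11.6 against 8.68 CPM). P2rx7 was above P2rx4 in 4 of 6 libraries, P2rx4 above Entpd1 in 5, Entpd1 above Nt5e in 5, Nt5e above P2ry14 in 4 and P2ry14 above Adora2b in 3. Each pair was measured in the same libraries, and the differences within libraries were not tested. P2ry13 was above P2rx7 in 6 of 6 libraries.

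Among the 9 genes, only P2ry1 met the study's criteria, 1.5-fold or more with an unadjusted p under 0.05. The same criteria called 2.49% of all genes tested by edgeR, 1.82% higher after WAS by the labels (277 genes) and 0.676% lower (103 genes), and by limma on quantile-normalized log2 counts 220 genes were higher and 193 lower. No gene of the 9 passed an adjusted p of 0.05, and 0% of all genes did so by edgeR, with 1104 genes at an unadjusted p under 0.05 and 22 genes past the adjusted threshold by DESeq2. The groups did not overlap in CPM for 2 of the 9 genes, P2ry1 and Adora2b, both higher in the libraries labelled WAS, against 12.2% of all genes tested in either direction (8.42% higher, 3.76% lower). Of the 9 log2 fold changes, 3 were above 0 and 6 below, with a median of -0.031. Over all genes tested 50.2% were above 0, with a median of 0.00088. With 9 genes picked with earlier results known, these counts describe the genes and no more.

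**Figure D3:**
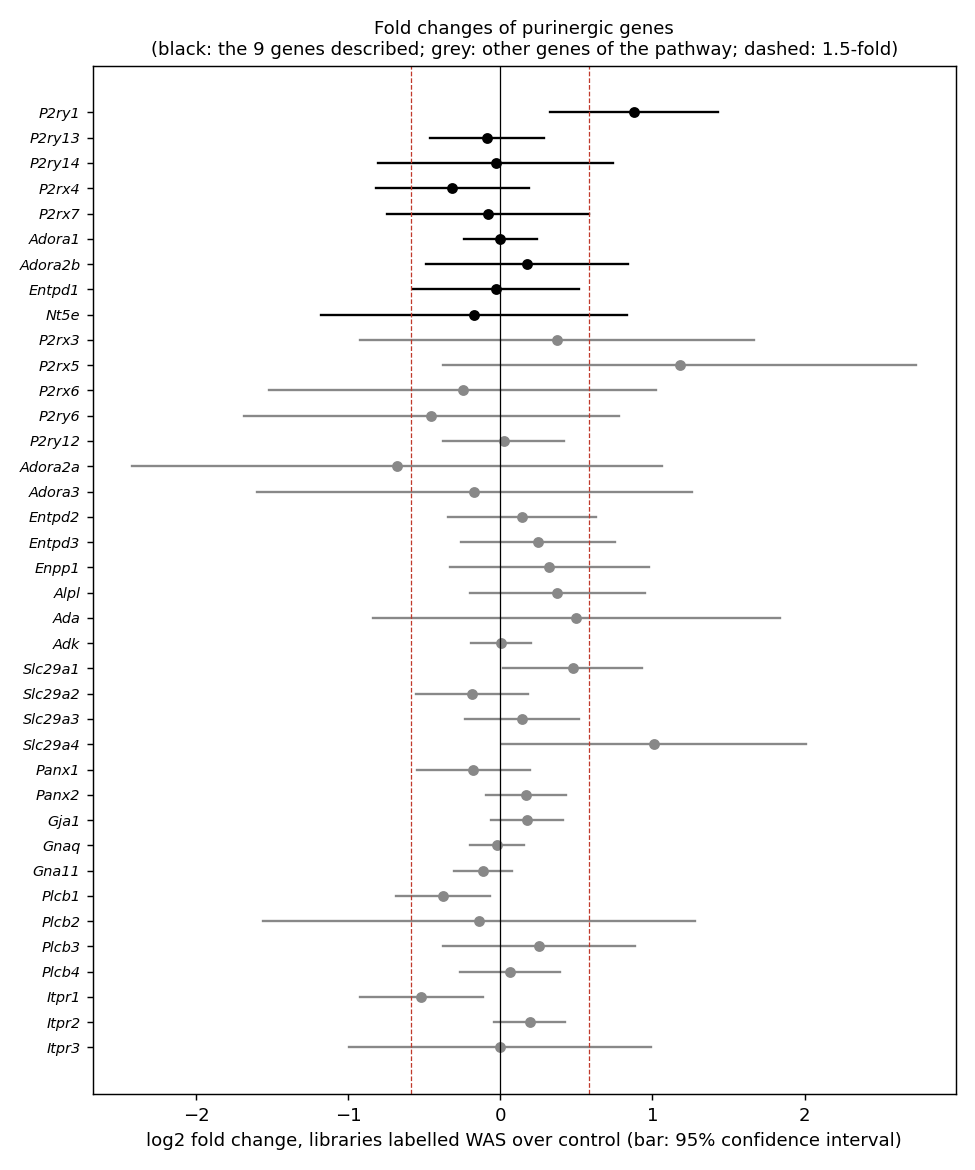
Log2 fold change of libraries labelled WAS over control for the 9 genes (black) and the 29 other purinergic genes tested (grey), with 95% confidence intervals from edgeR. Dashed lines mark a 1.5-fold change. Among the 9 genes only the interval of P2ry1, 0.33 to 1.43, lies wholly on one side of 0.

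The genes most like P2ry1 over the 6 libraries, among 11167 genes with a mean of at least 50 counts, were Nrp2 (Pearson r = 0.996), Gpx3 (0.992), Mzt2 (0.991), Arhgap24 (0.990) and Sox11 (0.987). The r is taken on log2 CPM, is a description, and rests on the same 6 libraries and their depth. Nrp2, a co-receptor of semaphorins and VEGF, had 361, 334 and 401 counts after WAS by the labels and 215, 202 and 333 counts in controls. It was picked for its likeness to P2ry1, so its higher count in control replicate 3 is no separate observation. Most like P2ry13 were 9330133O14Rik (0.994), Trrap (0.982) and Slc13a5 (0.982), and most like Nt5e were Xpc (0.986), Kcnd2 (0.976) and St8sia3 (0.970).
Some markers of other cell types had an unadjusted p under 0.05, as had 7.24% of all genes tested, and none reached an adjusted p of 0.05 by edgeR, the smallest over all genes being 0.477. In the astrocyte list, S100b was at 380.5 to 449 CPM in the libraries labelled WAS and at 317 to 337 CPM in those labelled control, Aqp4 had a log2 fold change of 0.36 and Aldoc of 0.22, each with an unadjusted p under 0.05 by edgeR, as had 3 of 8 genes of the list. Directions in this list were mixed, with 5 of the 8 log2 fold changes above 0, 3 below and a median of 0.13. The astrocyte sum was 4710 to 4870 CPM against 4611 to 4674 CPM, without overlap. Its largest part was Slc1a2 at -0.10 on the log2 scale, while Gfap was at 0.51 (unadjusted p = 0.0679 by edgeR). Slc1a3 was at -0.11, Aldh1l1 at -0.0013 and Sox9 at 0.034. The list of meningeal fibroblast genes summed to 139 to 199 CPM in the libraries labelled WAS and 88.3 to 148 CPM in those labelled control, where control replicate 3 was the highest of the controls and above WAS replicate 2. Of its 6 genes, Dcn, with a log2 fold change of 1.22, and Slc6a13, with 0.72, had an unadjusted p under 0.05 by edgeR. All 6 log2 fold changes were above 0, with a median of 0.53. Of 6 neuronal markers, Syt1, Rbfox3 and Slc17a7 had log2 fold changes of -0.24, -0.36 and -0.32, each with an unadjusted p under 0.05 by edgeR, while Snap25 was at -0.26, Gad1 at -0.047 and Gad2 at 0.11. The neuronal sum was 4443 to 5237 CPM against 5307 to 5834 CPM, without overlap.
Among midbrain markers, Th, the enzyme that makes the precursor of dopamine, had a log2 fold change of 2.01 (unadjusted p = 0.00105 by edgeR), and Slc6a3, the dopamine transporter, held 107, 0 and 100 counts after WAS by the labels against 0, 3 and 3 (unadjusted p = 0.00184 by edgeR). All 4 blood genes lay above 0 on the log2 scale (median 0.31), none with an unadjusted p under 0.05 by edgeR, and their sum was 1300.3 to 2198 CPM against 1187 to 1558 CPM. Of 5 mural cell genes, 1 had a log2 fold change above 0 and 4 below, with a median of -0.036. Vtn, the 1 above, was at 0.34 and alone had an unadjusted p under 0.05 by edgeR. The list summed to 73.1 to 82.5 CPM against 67.3 to 77.4 CPM, with overlap.
The list of 9 stress response genes was split, with 5 log2 fold changes above 0, 4 below and a median of 0.029. Fos and Egr1, both immediate early genes, went opposite ways, at 0.34 (unadjusted p = 0.0381 by edgeR) and -0.42 (unadjusted p = 0.00112 by edgeR), and in CPM neither overlapped between the groups, although for Fos the nearest libraries were at 32.762 and 32.754 CPM and the raw counts overlapped. The list summed to 1159 to 1234 CPM after WAS by the labels and to 1135 to 1373 CPM in controls, where control replicate 3 was the lowest.
No oligodendrocyte precursor, endothelial or choroid plexus gene had an unadjusted p under 0.05 by edgeR, and the medians of these lists were 0.11, 0.0060 and -0.011. Of the lists described, the most abundant genes not named so far were Csf1r at -0.031, Olig1 at 0.18, Slco1a4 at 0.067, Rgs5 at -0.036, Igf2 at 0.33, Ttr at -0.065, Ppp1r1b at -0.54, Slc18a2 at 0.67 and Hba-a1 at 0.27 as log2 fold change. The part of these markers in the P2ry1 values was not tested.

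**Figure D4:**
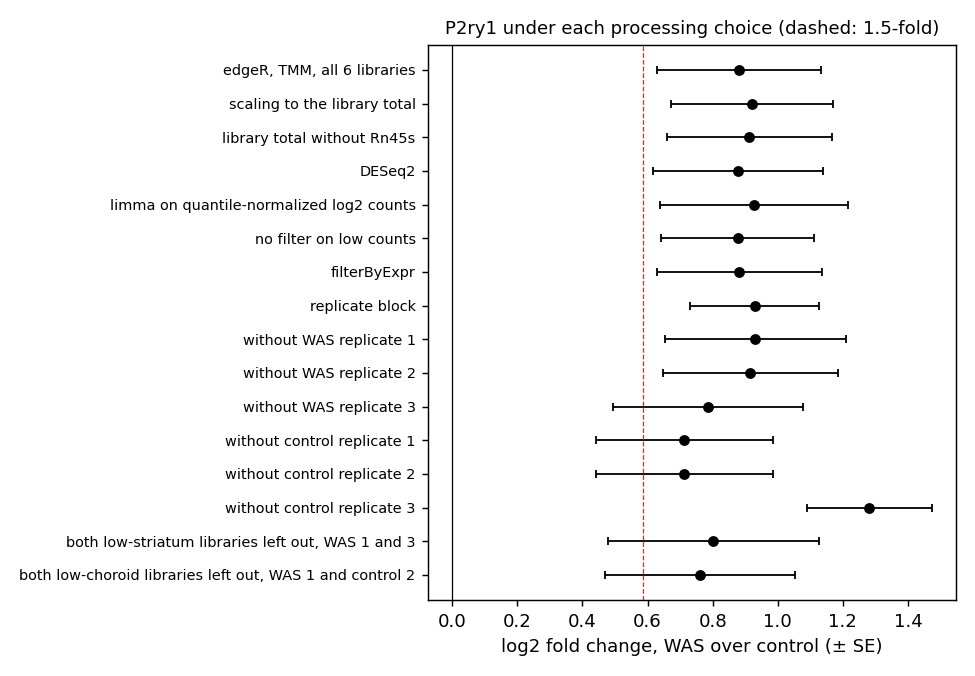
Log2 fold change of P2ry1, libraries labelled WAS over control, with its standard error, for the reported fit and 15 alternatives. The values run from 0.71 without control replicate 1 to 1.28 without control replicate 3 and stay to the right of the dashed line at a 1.5-fold change.

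The rest of the purinergic pathway was followed through 39 other genes, of which 29 were tested. An unadjusted p under 0.05 by edgeR was reached by 4 of them (2 higher and 2 lower after WAS by the labels), against 7.24% of all genes tested, and 0 reached an adjusted p of 0.05. Their median log2 fold change was 0.062, with 17 of 29 above 0 (58.6%), against 50.2% of all genes tested.
Among the other receptors, P2ry12 and Adora2a, described above, had more counts than P2ry1 in total over the 6 libraries (878 and 1463 against 747). In WAS replicates 1 and 3 P2ry1 had more, at 153 and 184 counts against 144 and 134 for P2ry12 and 5 and 73 for Adora2a. P2rx3, P2rx5, P2rx6, P2ry6 and Adora3 held 43 to 65 counts over all 6 libraries. P2rx1, P2rx2, P2ry2 and P2ry4 held at most 7 counts in any library and were not tested. P2rx6 was the most abundant of the other P2X genes, at 0.385 to 1.303 CPM.
The genes that take up or break down adenosine held both higher ones. Slc29a1 (ENT1), the equilibrative transporter that carries adenosine across the membrane, had 112, 138 and 102 counts in WAS replicates 1, 2 and 3 and 98, 96 and 68 counts in the control replicates. In CPM the groups did not overlap, and its log2 fold change was 0.47 (standard error 0.21, unadjusted p = 0.0433 and adjusted p = 0.681 by edgeR). The unadjusted p was over 0.05 by DESeq2 (0.0537), by limma (0.0661) and, by edgeR, without WAS replicate 2 (0.202), control replicate 1 (0.0556), control replicate 2 (0.0537) or control replicate 3 (0.147).
Slc29a4 (PMAT), which carries monoamines as well as adenosine, had 58, 41 and 87 counts in WAS replicates 1, 2 and 3 against 25, 13 and 55 counts in the control replicates. The groups overlapped through control replicate 3, and the log2 fold change was 1.01 (standard error 0.45, unadjusted p = 0.0473 and adjusted p = 0.684 by edgeR). The unadjusted p was over 0.05 by limma (0.0828) and, by edgeR, when WAS replicate 1 (0.0556), WAS replicate 3 (0.198), control replicate 1 (0.14), control replicate 2 (0.163), both WAS replicates 1 and 3 (0.393) or both WAS replicate 1 and control replicate 2 (0.159) were left out. Its log2 change ran from 0.50 without WAS replicates 1 and 3 to 1.76 without control replicate 3. Markers of midbrain monoamine neurons, 4 of 5 tested and all 4 with a log2 fold change above 0, summed to 15.4 to 62.4 CPM in the libraries labelled WAS and to 12.6 to 14.8 CPM in those labelled control, and Pitx3 had at most 1 count. Their part in the Slc29a4 values was not tested. Adk, the kinase that clears adenosine inside the cell, was the most abundant gene of this group, at a log2 fold change of 0.0036 ± 0.090 (SE).
Both lower genes belonged to the Gq cascade through which P2Y1 signals. Itpr1, the main IP3 receptor of neurons, was at 203, 366 and 214 CPM in WAS replicates 1, 2 and 3 and at 370, 382 and 344 CPM in the control replicates, -0.52 ± 0.18 as log2 fold change (SE, unadjusted p = 0.0161 and adjusted p = 0.585 by edgeR). Plcb1, a phospholipase C activated by Gq, was at 303, 434 and 284 CPM against 423, 463 and 406 CPM, -0.38 ± 0.14 as log2 fold change (SE, unadjusted p = 0.0222 and adjusted p = 0.625 by edgeR). In both genes WAS replicate 2 stood with the controls, and WAS replicates 1 and 3, the libraries low in striatal markers, stood below. Without WAS replicate 2 the log2 fold changes were -0.85 for Itpr1 (adjusted p = 7.1e-05 by edgeR) and -0.59 for Plcb1 (adjusted p = 0.00202 by edgeR), and without WAS replicates 1 and 3 they were -0.037 and -0.027. The unadjusted p of Itpr1 was over 0.05 by DESeq2 (0.0744), by limma (0.0735) and, by edgeR, with WAS replicate 1 (0.0527), WAS replicate 3 (0.0701) or control replicate 2 (0.0539) left out, and that of Plcb1 by limma (0.0909) and, by edgeR, with WAS replicate 1 (0.0661), WAS replicate 3 (0.0973) or control replicate 2 (0.0861) left out. Without WAS replicate 1 and control replicate 2 it was 0.119 for Itpr1 and 0.174 for Plcb1 by edgeR. Itpr2, another IP3 receptor, was at 52.3, 43.9 and 47.0 CPM in WAS replicates 1, 2 and 3 and at 40.6, 38.2 and 43.4 CPM in the control replicates, without overlap, and its log2 fold change was 0.19 (unadjusted p = 0.0991 by edgeR). The other 7 genes of the cascade, among them Itpr2 and Gnaq at a log2 fold change of -0.022 ± 0.081 (SE), did not reach an unadjusted p of 0.05 by edgeR.
Of the other surface enzymes, Entpd3 was the most abundant, at a log2 fold change of 0.25 ± 0.23 (SE). Of the genes of ATP release, Gja1, the connexin 43 of astrocytes, was the most abundant at a log2 fold change of 0.18 ± 0.11 (SE), and the vesicular transporter Slc17a9 held at most 4 counts in a library.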

How the data were processed

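The authors isolated total RNA with Trizol from 1 forebrain hemisphere per mouse, prepared QuantSeq 3′ libraries, aligned the reads with Bowtie2 and used Bedtools to count them per gene, multiple alignments included. The deposited values are raw read counts per gene symbol. The submitters' processing notes name mm10. The annotation and the strand setting of the counting are not given in the sources used here. Replicates are biological replicates per the labels.

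TMM scaling (factors 0.976 to 1.01) and the quasi-likelihood model of edgeR 4.0.16 (R 4.3.3) were applied to genes with a mean log2(quantile-normalized count + 1) of at least 2, without a replicate term. Standard errors are the log2 fold change over the square root of F. CPM use library totals. Coordinates, overlaps and transcript ends are from GENCODE M21 (GRCm38), and promoters from RefSeq (all 9 genes matched). Intervals for counting cover counting error only.

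The 9 genes, the pathway and marker lists and the rule for named genes (all 9 genes, list genes with an unadjusted p under 0.05, the most abundant of each list, and the genes most alike) were chosen with earlier results of these data known. The result of 1 marker list is not reported here. Alternatives were total-count scaling, totals without Rn45s, DESeq2 1.42.0, limma 3.58.1, other filters, the replicate block and each library left out. Fits without 2 libraries were chosen after seeing the data.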

Additional observations from a re-analysis of the deposited data

How the results depend on the processing

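P2ry1 met the criteria of fold and unadjusted p under all 15 alternatives, with adjusted p from 0.0914 to 0.9997. With each library left out in turn its log2 fold change ran from 0.71 to 1.28, and the genes of the 9 past the criteria from 1 to 2 (Nt5e joined without WAS replicate 2). All genes past the criteria ran from 264 to 825, those higher after WAS by the labels from 185 to 462 and those lower from 79 to 363. All genes at an unadjusted p under 0.05 by edgeR ran from 623 to 2084, and those past an adjusted p of 0.05 from 0 to 491. The highest of each of these counts came without WAS replicate 2. Genes past the adjusted threshold numbered 22 by DESeq2, 49 with the replicate block and 1 without WAS replicates 1 and 3. Some signs turned. Under total-count scaling P2ry14 was at 0.0063 and Entpd1 at 0.010, and without Rn45s in the total they were at 0.0041 and 0.0046. Adora1 was at -0.00050 by DESeq2, -0.0020 without the filter and -0.0034 with the block. P2rx7 was at 0.0096 by limma. Without WAS replicates 1 and 3, P2ry13 was at 0.083, Adora1 at -0.22, Entpd1 at 0.21, Nt5e at 0.75 and Adora2a at 0.71. Without WAS replicate 1 and control replicate 2, Adora1 was at -0.047, Entpd1 at 0.0072 and Nt5e at 0.10. With single libraries left out, the ranges were -0.18 to 0.0018 for P2ry13, -0.37 to 0.19 for P2ry14, -0.37 to 0.33 for P2rx7, -0.10 to 0.097 for Adora1, -0.16 to 0.086 for Entpd1, -1.001 to 0.17 for Nt5e and -0.11 to 0.17 for P2ry12. The causes were not tested.

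Same-numbered libraries deviated together only weakly (r of 0.066, 0.0845 and 0.0873 for numbers 1, 2 and 3), each library correlating best with its own number, and the labels give no shared litter or batch. With the replicate block P2ry1 was at 0.93 (adjusted p = 0.0997 by edgeR) and no call among the 9 genes changed. Depth limits Adora2b, with 166 counts in all and a spread below the counting error.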
